A study of Medicago truncatula with 48 samples.

Results

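The transcripts described here are 150 nuclear transcripts of Medicago truncatula whose level at standard temperature was highest in the youngest embryos sampled. They were chosen from 44473 transcripts in the count table, of which 44316 were nuclear. The level used throughout is a scaled count: the estimated count of a transcript per 1000000 counts of its library, with the 100 largest counts of that library taken out of the total. A member had its highest mean among the 10 standard-temperature groups in embryo S1, a mean of 10 to 2000 scaled counts there, and a value of log2(mean + 1) at least 1 above that of the next group. This gave 664 candidates, and the 150 with the largest gap to the next group are the members. The gap was 4.58 at most, 2.47 at the median and 1.99 at least. The 5 members nearest the limit had gaps of 2.02, 2.02, 2.01, 2.00 and 1.99, and the first 5 candidates outside it 1.99, 1.98, 1.98, 1.98 and 1.97, so the limit falls within a continuous range.

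Plants of the reference genotype A17 were grown at standard temperature, with days at 20 °C, until flowering. Some were then kept there, and the others were grown under heat stress, with days at 26 °C. Their seeds were dissected into embryo, endosperm and seed coat. Embryo and endosperm were taken at stages S1, S2, S3 and S4, which were 14, 17, 22 and 28 days after pollination (DAP) under heat and 17, 26, 36 and 44 DAP at standard temperature, and seed coat at S1 and S2. S1 precedes and S2 follows the acquisition of desiccation tolerance, S3 marks the onset of seed longevity, and S4 is the mature seed. Each of the 8 embryo groups had 3 libraries and each of the other 12 groups had 2, 48 in all. Because stages were matched by seed physiology, heat S1 embryos were also 3 days younger, and temperature and age cannot be told apart at any stage. In whole tissues, fewer cells of a type and less RNA per cell cannot be told apart either.

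During maturation a legume embryo leaves the phase of cell division and organ formation, fills its storage cells with proteins, oil and carbohydrates, and then acquires the capacity to survive drying and storage. Transcripts of cell division and early growth typically give way to those of storage proteins and, later, of late embryogenesis abundant proteins. The endosperm of this species persists as a thin living layer around the embryo, and the seed coat is maternal tissue. The transcripts are named by their identifiers, without the prefix MtrunA17_ that all of them carry. None of the 44473 identifiers matched the reference gene table used here, so no gene name, function or sequence is given for any member.

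The libraries held 17690405 to 53776178 counts, the highest in seed coat. The nearest library was a replicate of the same group for 47 of the 48 libraries and one of the same tissue for all 48. The exception was standard embryo S3 replicate 2, which lay nearest to heat embryo S3 replicate 2. No marker check of the tissue labels was made, since the transcripts carry no names. The 100 largest counts held 65.5% to 66.8% of all counts in heat embryo S1 and 43.0% to 43.2% in standard embryo S1, and the choice of scaling therefore bears on any comparison between them. The members together made up 0.563% to 0.632% of the counts of heat embryo S1 libraries and 1.41% to 1.45% of those of standard embryo S1 libraries.

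The 150 members covered a wide range of abundance, and their median level fell with every embryo stage at both temperatures. In standard embryo S1 they ranged between 10.03 and 1443 scaled counts, with a median of 51.6, which is the range the choice of members imposed. In heat embryo S1 they ranged between 0 and 2047, with a median of 26.5. At stages S1, S2, S3 and S4 the median over members was 26.5, 7.83, 1.76 and 0.258 in heat embryos and 51.6, 7.08, 0.865 and 0.171 in standard embryos. The group means decreased at each of the 3 embryo steps for 124 members under heat and for 110 at standard temperature. A member at 0 at embryo S3 cannot fall further, which held for 5 members under heat and 11 at standard temperature. At standard temperature the fall after S1 was set by the choice of members. The share over all transcripts was not computed, so the counts are a description only. In endosperm the medians at S1 to S4 were 2.41, 0.952, 0.268 and 0.132 under heat and 2.44, 0.326, 0.218 and 0.0862 at standard temperature. In seed coat they were 0.886 at S1 and 0.464 at S2 under heat, and 3.59 at S1 and 0.630 at S2 at standard temperature. The standard values chose the members and describe them only, whereas the 24 heat libraries took no part in that choice.

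**Figure D1:**
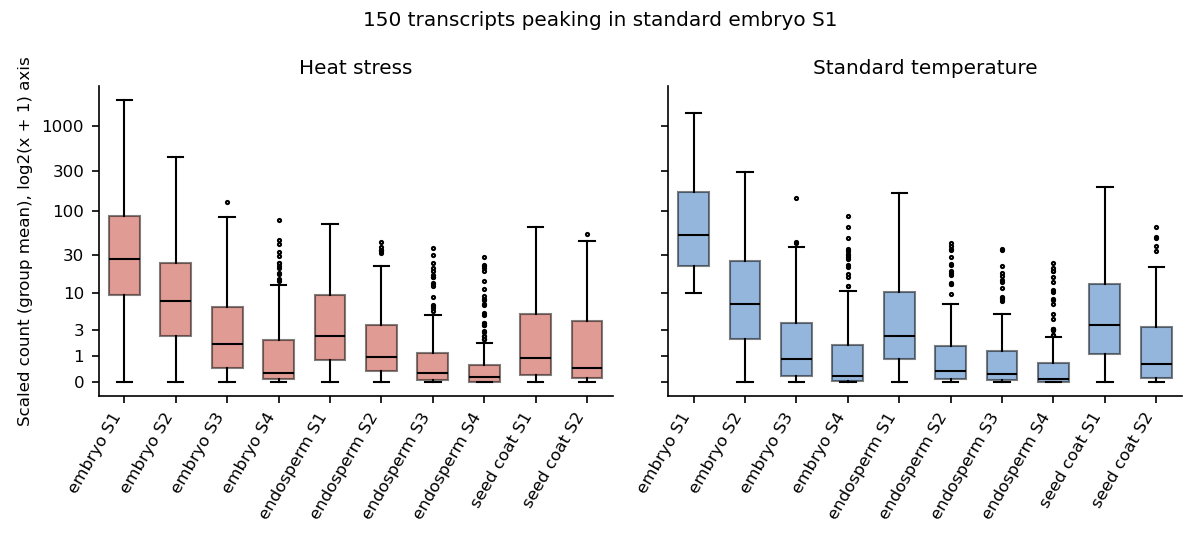
Scaled counts of the 150 members (group means, log2(x + 1) axis) in the 10 heat groups (left panel) and the 10 standard groups (right panel). Boxes span the quartiles with the median as a line, whiskers reach 1.5 interquartile ranges and dots are members beyond them. The median is highest in embryo S1 in both panels, at 26.5 under heat and 51.6 at standard temperature.

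The member with the largest gap was Chr2g0332191. It had 45.3, 41.2 and 48.1 scaled counts in heat embryo S1 against 173, 181 and 180 in standard embryo S1, and 5.48 to 7.14 in heat embryo S2 against 5.34 to 6.18 in standard embryo S2. It kept a low level to maturity, at 4.43 on average in heat embryo S4 and 4.52 in standard embryo S4. The libraries of embryo S1 thus did not overlap with those of any later embryo stage at either temperature. Within the heat libraries its log2 fold change was -2.93 ± 0.25 (SE) for embryo S2 over S1 (edgeR adjusted p = 1.334e-08) and -3.25 ± 0.24 for S4 over S1 (adjusted p = 8.534e-11).

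The second, Chr6g0467781, had 62.3, 54.5 and 62.5 scaled counts in heat embryo S1 against 102, 94.9 and 95.9 in standard embryo S1. It was far lower at S2, with 3.51 to 7.49 in heat embryos and 3.16 to 4.04 in standard embryos, and was detected in 1 heat and 1 standard library of embryo S4. The third, Chr1g0188121, behaved alike, with 32.4, 22.4 and 26.9 in heat embryo S1 against 43.0, 44.4 and 40.9 in standard embryo S1. Its log2 fold change under heat was -3.41 ± 0.33 for embryo S2 over S1 (edgeR adjusted p = 7.765e-08). The fourth, Chr7g0239511, had 53.2, 57.4 and 58.9 in heat embryo S1 against 80.8, 82.2 and 83.5 in standard embryo S1, and was at 0 in every embryo S4 library of both temperatures. Under heat it was at least 553-fold lower at S4 than at S1, taking 3 counts over the 3 libraries as the floor.

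Of the other members of the leading 10, Chr4g0023961 had 9.02, 9.85 and 10.5 scaled counts in heat embryo S1 against 40.7, 33.3 and 39.2 in standard embryo S1. For Chr6g0480011 the heat embryo S1 libraries held 6.80, 9.55 and 8.29 and the standard ones 33.5, 33.8 and 37.0. Both transcripts still dropped sharply at S2 under heat, with log2 fold changes over S1 of -2.46 ± 0.39 and -3.77 ± 0.41 (edgeR adjusted p = 9.956e-05 and 1.061e-06). Chr7g0256391 and Chr1g0192781 followed the same course, at 39.3 and 8.75 on average in heat embryo S1 against 78.8 and 26.1 in standard embryo S1.

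The remaining 2 of the leading 10 did not. Chr8g0381201 had 3.96, 2.88 and 2.46 scaled counts in heat embryo S1 against 23.5, 22.3 and 22.0 in standard embryo S1. In heat embryos it was nearly undetected at S2, at 0, 0 and 0.433, and then reached 0.993 on average at S3 and 2.20 at S4, where its level did not differ from S1 beyond the test's threshold (log2 fold change -0.40 ± 0.42, edgeR adjusted p = 0.4287). Its values at S1 rest on 25, 19 and 16 counts in the heat libraries. Chr7g0229251 was found in single libraries rather than in whole groups. It was at 0 in all 3 heat embryo S1 libraries and at 0, 15.7 and 16.1 in the standard ones, and reappeared at 9.24, 12.4 and 0 in heat embryo S2.

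**Figure D2:**
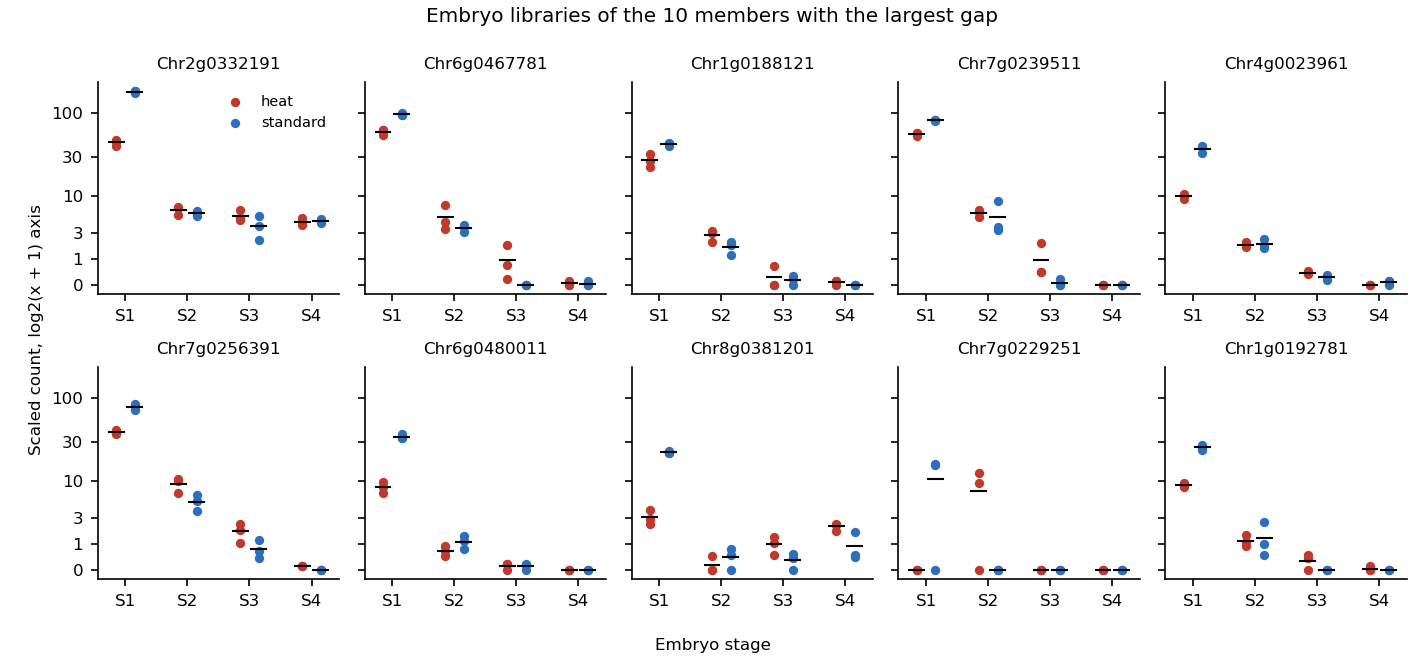
Scaled counts of the 10 members with the largest gap in each embryo library (log2(x + 1) axis), with heat libraries in red at the left and standard libraries in blue at the right of each stage, and black bars at the group means. In 8 of the 10 panels embryo S1 is above all later stages at both temperatures by a wide margin, whereas Chr8g0381201 has higher means at S4 than at S2 and Chr7g0229251 appears in 2 of 3 libraries of standard embryo S1 and of heat embryo S2.

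Among the 5 most abundant members, 3 were nearly as high under heat in scaled counts. Chr8g0358961 had 1439, 1196 and 1459.5 scaled counts in heat embryo S1 against 1471, 1464 and 1395 in standard embryo S1, so that the ranges overlapped. Chr3g0143491 had 1404, 1186 and 1310 against 1371, 1342 and 1340, again overlapping. Chr1g0184761 had 1202, 956 and 1116 against 1233, 1201 and 1185. The totals of these libraries were close, at 19014614 to 19142113 counts under heat and 19314724 to 19535418 at standard temperature. Before scaling, all 3 members were lower under heat, with Chr8g0358961 at 9096, 7886 and 9507 estimated counts against 16153, 16273 and 15496. Under heat, each of these 3 was lower at every later embryo stage than at S1 (edgeR). Of the other 2 among the 5 most abundant, Chr8g0377351 was far lower under heat, at 433, 390 and 437 scaled counts against 1169, 1165 and 1195 at standard temperature. Chr6g0453141 went the other way in scaled counts, with 2072, 1796 and 2271 in heat embryo S1 and 1374, 1334 and 1267 in standard embryo S1. Before scaling it had 13098, 11847 and 14794 estimated counts under heat against 15090, 14826 and 14077, so its direction depends on the scaling. Per kilobase of effective length (the length Salmon gives after its correction for fragment ends, 271 of 520 bases here), the highest member was the short Chr4g0070701, at 4436 scaled counts per kilobase in heat embryo S1 and 4341 in standard embryo S1.

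Whether the members also decline in embryos that the choice did not use was tested within the 24 heat libraries. All 150 members passed the filter on low counts, and the p-values were adjusted over all 29226 transcripts tested, with a threshold of 0.01. At S2, 136 of the 150 members were lower than at S1 and 0 were higher, whereas 10.6% of all transcripts tested were lower and 7.46% higher. The median log2 fold change was -2.13 over members (quartiles -2.67 and -1.57) and 0 over all transcripts. For the 0 members called higher, edgeR gave 1 at an unadjusted p under 0.05 and DESeq2 called 0. At S3, 145 members were lower than at S1 and 0 higher (background 23.3% and 18.8%), and at S4 147 were lower and 0 higher (background 29.7% and 28.6%). In neither was a member higher at an unadjusted p under 0.05 or by DESeq2. The median log2 fold changes were -4.29 at S3 and -6.54 at S4. With members at 0 in one group set to the floor of 3 counts, the median was -1.99 for S2, -4.33 for S3 and -5.94 for S4.

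At S2, 14 members were not called lower. Of these, 12 had a negative log2 fold change that missed the threshold (-2.02 to -0.10, edgeR adjusted p = 0.01187 to 0.9086), and Chr7g0229251 and Chr4g0016791 were at 0 in heat embryo S1. Chr2g0295191 had 39.2, 35.7 and 40.0 scaled counts in heat embryo S1 and 40.1, 37.1 and 41.4 in heat embryo S2, against 135 on average in standard embryo S1. Its level under heat was therefore flat over the first step (log2 fold change -0.10 ± 0.27, edgeR adjusted p = 0.9086) and fell later, by 4.59 on the log2 scale at S4. Chr3g0109801 and Chr6g0487531 had log2 fold changes of -0.64 ± 0.20 and -0.67 ± 0.19 at S2 (adjusted p = 0.01862 and 0.01233). Both fell by S4, with log2 fold changes over S1 of -3.87 and -3.67. At S3 the members not lower than at S1 also included Chr8g0385881, which had 31.6, 22.4 and 22.6 scaled counts in heat embryo S1, 5.40, 4.17 and 8.44 at S2, and 17.4, 19.8 and 22.6 at S3. It was thus low at S2 and high on both sides of it. A further member not called lower at S3 was Chr6g0457271, at 6.93 on average in heat embryo S1 and 4.60 in heat embryo S3.

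Against the other tissues of the same heat-grown seeds, the members were higher in the embryo. In heat embryo S1, 147 of 150 were higher than in heat endosperm S1 and 0 were lower, whereas 27.5% of all transcripts tested were higher and 35.4% lower. For the 0 members called lower, edgeR gave 0 at an unadjusted p under 0.05 and DESeq2 called 0. The median log2 fold change was 3.88 over members (3.62 with the floor) and -0.34 over all transcripts. Compared with heat seed coat S1, 147 members were higher and 1 was lower (background 27.7% and 38.3%), with a median log2 fold change of 4.95 (4.97 with the floor) against -0.41 over all transcripts. The lower one was Chr3g0115151. It had 1.11, 0.758 and 2.00 scaled counts in heat embryo S1 and 11.3 and 9.11 in heat seed coat S1 (log2 fold change -2.94 ± 0.35, edgeR adjusted p = 1.461e-07). At standard temperature it had 19.4, 15.4 and 13.0 in embryo S1 and 2.29 and 0.630 in seed coat S1, so its order between the tissues was turned round.

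**Figure D3:**
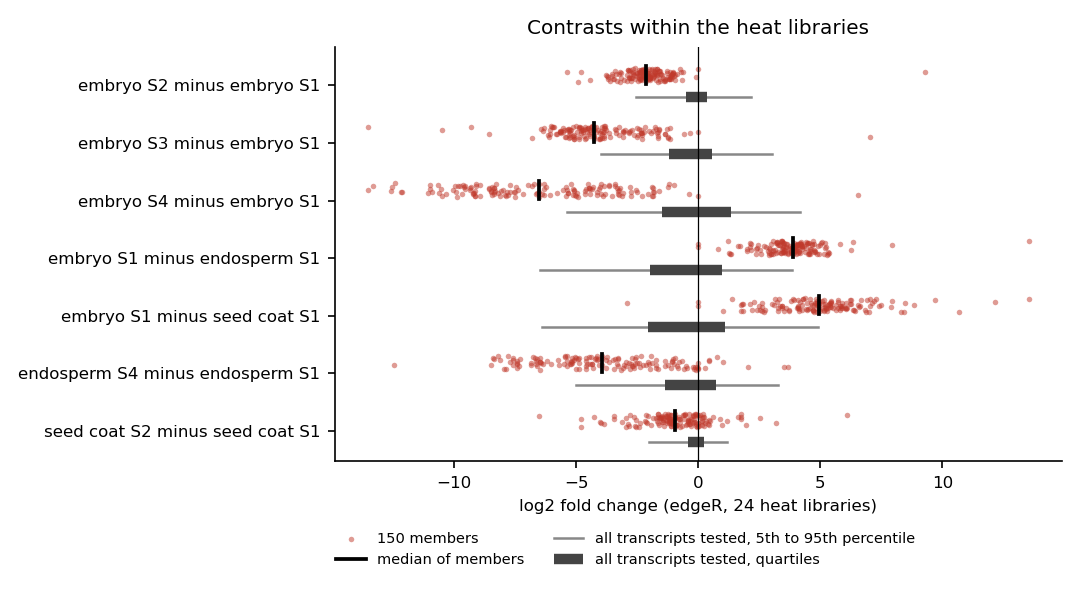
Log2 fold changes (edgeR) of the 150 members in 7 contrasts within the 24 heat libraries, as red points with a black bar at their median, above the quartiles (thick line) and the 5th to 95th percentile (thin line) of all transcripts tested. The median of the members is -2.13 for embryo S2 minus S1, -6.54 for S4 minus S1 and 3.88 for embryo S1 minus endosperm S1. Points far from 0 are fits in which 1 of the groups is at or near 0 counts, and their size is uncertain.

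Embryo S1 was the highest of the 10 heat groups for 144 of the 150 members (96%), whereas it was the highest for 15.5% of the nuclear transcripts with counts. It was also the highest for 487 of the 514 other candidates (94.7%), so the members and the candidates beyond the limit were close in this respect. All 3 heat embryo S1 libraries lay above every other heat library for 141 members, against 5.59% of nuclear transcripts with counts. On the log2(mean + 1) scale the excess over the next heat group had a median of 1.63, and it was at least 1 for 114 members and at least 2 for 48. Chosen by the same rule in other groups, 150 transcripts each peaking at standard temperature in embryo S2, endosperm S1 and seed coat S1 had the same highest group under heat in 123, 143 and 128 cases. The differences between these lists were not tested.

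The next-highest group shifted between temperatures. At standard temperature it was embryo S2 for 90 members, seed coat S1 for 34, endosperm S1 for 13 and another group for 13. Among the 144 members that kept their peak under heat, it was embryo S2 for 122, endosperm S1 for 9 and seed coat S1 for 1. Of the 34 members with seed coat S1 second at standard temperature, 1 had it second under heat. The median of those 34 was 1.56 scaled counts in heat seed coat S1 and 6.74 in standard seed coat S1.

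One library bears on that shift. In standard seed coat S1, 148 of the 150 members were higher in replicate 1 than in replicate 2, with a median ratio of 2.94, and the median over members was 5.37 in replicate 1 and 1.85 in replicate 2. Of the 41596 nuclear transcripts with counts, 18617 were higher in replicate 1, and the median ratio was 1.02. Of the 150 transcripts peaking in seed coat S1 itself, 82 were higher in replicate 1, and the median ratio was 1.07. Chr2g0332191 had 11.1 and 1.87 scaled counts in these 2 libraries, and Chr8g0377351 had 55.5 and 5.06. The 150 transcripts peaking in endosperm S1 were higher in replicate 1 in 141 cases, with a median ratio of 2.45. Those peaking in embryo S2 were higher there in 110 of 150 cases, with a median ratio of 1.65. With replicate 1 left out, an alternative chosen after seeing the data, seed coat S1 was second for 14 members and embryo S2 for 101, and 138 of the 150 members were chosen again. Why the 2 libraries differ was not tested.

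**Figure D4:**
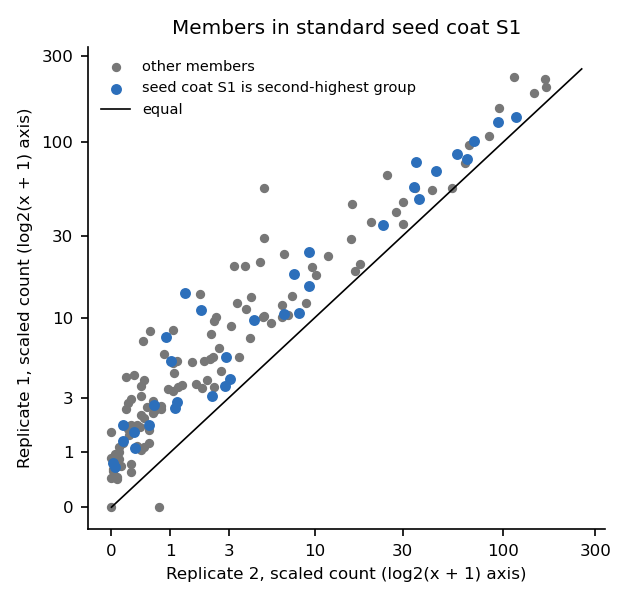
Scaled counts of the 150 members in the standard seed coat S1 libraries, replicate 1 on the vertical axis and replicate 2 on the horizontal one (log2(x + 1) axes). Blue points are the 34 members with seed coat S1 as second-highest group at standard temperature. All but 2 of the 150 points lie above the line of equal values.

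For 6 members another heat group was highest. Chr7g0229251 was highest in embryo S2, through the 2 libraries given above. Chr4g0016791 was at 0 in all 3 heat embryo S1 libraries against 28.5, 16.4 and 19.7 in standard embryo S1, and otherwise appeared in scattered libraries, such as 4.12 in 1 of 3 heat embryo S3 libraries. Chr3g0115151 was highest in seed coat S1. Chr1g0209821 was highest in endosperm S3, at 26.3 and 21.6 scaled counts under heat against 1.29 and 0.613 at standard temperature, while heat embryo S1 held 10.6, 8.49 and 10.7. Chr2g0322351 was highest in seed coat S2, at 7.15 and 6.20 under heat, while heat embryo S1 held 5.70, 7.58 and 4.76. The sixth was Chr2g0295191, whose level was near equal at embryo S1 and S2. The libraries of embryo S1 and of the higher group did not overlap for Chr1g0209821 and Chr3g0115151 and overlapped for the other 4.

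In embryo S1 itself most members had a lower level under heat than at standard temperature. This comparison is a description, because high values in the standard libraries chose the members. The log2 ratio of heat over standard on the log2(mean + 1) scale had a median of -1.09 (quartiles -1.48 and -0.56), and the range was -4.49 to 2.22. The mean was lower under heat for 137 members and higher for 13, lower by at least 1 on that scale for 81 and higher by at least 1 for 2. All 3 heat libraries lay below all 3 standard libraries for 124 members and above them for 7. Among the 11396 nuclear transcripts in the same range of level in standard embryo S1 these shares were 36.9% and 28.6%, with a median log2 ratio of -0.04. In edgeR's fit of the 24 embryo libraries 103 members were called lower and 1 higher, beside 10.3% and 8.23% of all transcripts tested. The other 514 candidates had a median log2 ratio of -0.63. Replicates were close in both groups, with a median coefficient of variation of 10.7% over heat and 4.61% over standard libraries. The order of the members was largely shared, with a Spearman coefficient of 0.93 over the 150 members, which are not independent points.

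**Figure D5:**
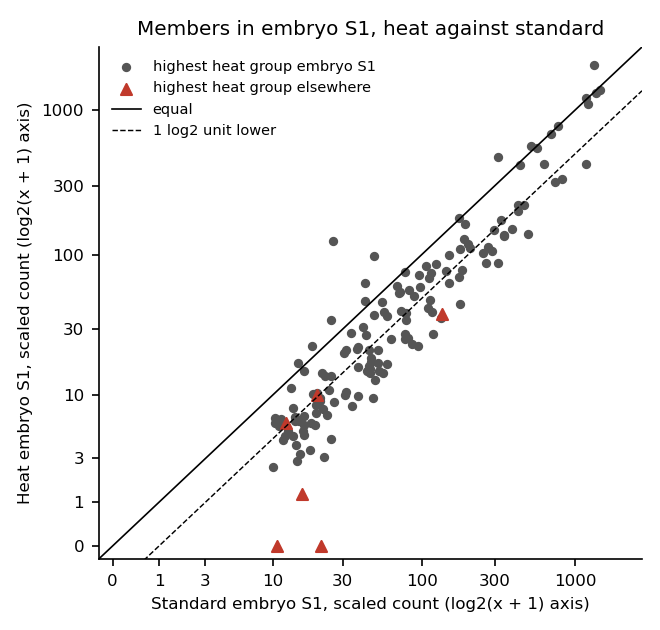
Mean scaled counts of the 150 members in embryo S1, heat on the vertical axis and standard temperature on the horizontal one (log2(x + 1) axes, 3 libraries each). The solid line marks equal values and the dashed line values 1 log2 unit lower under heat, and red triangles are the 6 members with another highest heat group. 137 points lie below the solid line.

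The 5 members with the highest ratio of heat over standard were Chr6g0453141, whose values are given above, and 4 less abundant ones. Chr4g0016511 had the highest ratio and was also uneven between replicates, at 164, 139 and 70.6 scaled counts in heat embryo S1 and 56.1, 17.2 and 4.31 in standard embryo S1. It was at 0 in all 16 endosperm libraries and all heat seed coat libraries, and at 19.4 to 31.9 in heat embryo S2 against 0 in standard embryo S2. Chr8g0343011 had 112, 87.4 and 96.1 in heat embryo S1 against 47.6, 46.8 and 50.6 in standard embryo S1. Chr3g0124681 had 531, 430 and 464 against 307, 307 and 324, and Chr1g0197761 had 70.7, 58.0 and 62.0 against 39.5, 43.7 and 43.5. In none of these 3 did the groups overlap in scaled counts. Before scaling, only Chr8g0343011 was still higher, at 706, 576 and 626 estimated counts under heat against 523, 520 and 562. Chr3g0124681 then had 3356, 2835 and 3024 against 3370, 3415 and 3597, and Chr1g0197761 had 447, 383 and 404 against 434, 486 and 483. The highest library exceeded the lowest by more than 2 times for 4 members in heat embryo S1 and for 2 in standard embryo S1.

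At the other end were the members that were scarce or at 0 under heat. Chr4g0016791 and Chr7g0229251, at 0 in all heat embryo S1 libraries, were at least 140-fold and at least 68.6-fold lower than in standard embryo S1, with 3 counts over the 3 libraries as the floor. Nearly all of their counts were estimated shares of reads, not whole numbers. Chr3g0115151 had 1.29 scaled counts on average under heat against 15.9 at standard temperature. Chr8g0381201 had 3.10 against 22.6, and Chr6g0457761 had 3.16, 5.46 and 4.76 against 25.6, 23.8 and 25.8. These members were all at low levels, where few counts stand behind a heat value (20, 36 and 31 counts for Chr6g0457761).

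At a shared age of 17 DAP the difference was wider. Heat embryos were then at S2 and standard embryos at S1, and the median of the members was 7.83 scaled counts in the heat embryos and 51.6 in the standard embryos. All 3 heat libraries lay below all 3 standard libraries for 148 of the 150 members, and for 43.1% of the 11396 nuclear transcripts in the same range of level. The same standard libraries chose the members, so this too is a description. In this setting stage and temperature cannot be told apart.

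The members also declined over the stages of heat endosperm, but not all of them. At S4, 103 members were lower than at S1, 3 were higher and 44 were not called, whereas 26.2% of all transcripts tested were lower and 22.3% higher. The median log2 fold change was -3.95 (-3.27 with the floor), and 42 members were at 0 in both heat endosperm S4 libraries. Chr8g0345641 had 69.1 and 72.6 scaled counts in heat endosperm S1 and 0 in both S4 libraries, at least 539-fold lower. Chr7g0215431 had 32.3 and 34.5 at S1, and 0 and 0.172 at S4. Both were thus at or near 0 by heat endosperm S4. The 3 that rose were Chr4g0053901, Chr1g0209821 and Chr1g0190771. Chr4g0053901 had 10.8 and 7.67 in heat endosperm S4 and 0.869 and 0.955 in heat endosperm S1 (log2 fold change 3.52 ± 0.33, edgeR adjusted p = 9.329e-09). Chr1g0209821 and Chr1g0190771 had log2 fold changes of 2.02 ± 0.36 and 1.00 ± 0.20 (adjusted p = 5.781e-05 and 0.0002646). The call of Chr1g0190771 was lost when libraries were scaled by library size alone. It was also lost without endosperm S4 heat replicate 1, where its log2 fold change was 0.60.

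In heat seed coat, sampled at S1 and S2 only, most members were not called. The median count of the members was 17.9 and 30.6 in the S1 libraries and 6.66 and 11 in the S2 libraries. At S2, 24 members were lower than at S1 and 2 were higher, 124 were not called, and 6.46% of all transcripts tested were lower and 3.73% higher. The median log2 fold change was -0.97 over members (-0.91 with the floor) and -0.03 over all transcripts. Over members it was -0.43 without seed coat S1 heat replicate 2. The count of calls depended on single libraries, with 15 lower without seed coat S1 heat replicate 2, 12 without seed coat S2 heat replicate 1 and 11 without seed coat S2 heat replicate 2. Members that were lower at S2 included Chr3g0143491, at 14.5 and 13.6 scaled counts in S2 and 38.8 and 48.2 in S1 (log2 fold change -1.67 ± 0.23, edgeR adjusted p = 1.914e-05). The 2 that were higher were Chr2g0322351, at 7.15 and 6.20 in S2 and 0.853 and 0.572 in S1, and Chr4g0044051, at 4.88 on average in S2 and 1.42 in S1.

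The members were spread over all 8 chromosomes, with 20, 15, 24, 28, 4, 16, 24 and 19 on chromosomes 1 to 8 in order. Chromosome 5 held 4 members (2.67%), whereas it held 11.2% of the nuclear transcripts with counts and 9.19% of the candidates. Chromosome 6 held 10.7% of the members and 7.76% of those nuclear transcripts. Neighbouring identifiers formed 4 pairs among the members, Chr4g0012941 with Chr4g0012951, Chr4g0070691 with Chr4g0070701, Chr5g0403121 with Chr5g0403131, and Chr8g0391341 with Chr8g0391351. The first pair differed in level, at 6.89 and 139 scaled counts in heat embryo S1 against 16.3 and 495 in standard embryo S1. The second pair was level between temperatures in scaled counts, at 178 and 1202 under heat against 174 and 1176 at standard temperature. Before scaling both were lower under heat, with Chr4g0070701 at 7862, 7012 and 8464 estimated counts against 12886, 13423 and 12754.

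Transcript length had a median of 1473 bases over members and 1350 over nuclear transcripts with counts. Counts were whole numbers in all 48 libraries for 85 members (56.7%) and for 55.8% of those nuclear transcripts. For 33 members the count was not whole in at least 24 of the libraries, so that reads shared with similar transcripts were split by estimation and their values are less certain. Among the libraries where a member was detected at all, at least 50% held such a count for 40 members. Chr3g0143491, Chr6g0453141, Chr4g0070701, Chr2g0295191 and Chr8g0345641 were among them, and so were all but Chr4g0012941 of the neighbouring pairs. The 3 members found in scattered or uneven libraries are less certain for the same reason. Counts were not whole in any of the 5 libraries with Chr7g0229251 or the 11 with Chr4g0016511, and in 11 of the 12 with Chr4g0016791.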

How the data were processed

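Single-end reads of 50 bases from 48 libraries were mapped by the authors to the A17 reference transcriptome with Salmon, and the authors deposited estimated counts per transcript, not normalized. Length and effective length were taken from the deposited table.

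Estimated counts were rounded and tested with edgeR 4.0.16 (R 4.3.3) by its quasi-likelihood test with TMM scaling, 1 mean per tissue and stage over the 24 heat libraries, and Benjamini-Hochberg adjustment over all 29226 transcripts kept by filterByExpr over the 48 libraries (minimum count 10). A call needed an adjusted p below 0.01. Heat over standard was fitted over the 24 embryo libraries and is given as a description. DESeq2 1.42.0, other scalings and filters, a replicate block and libraries left out in turn were tried as alternatives. On simulated data the fit of embryo S2 minus S1 recovered 56.2% of 2-fold and 91.0% of 4-fold changes, with 3 false calls among 29195 transcripts. There, 200 transcripts were changed in heat embryo S1 alone and every other mean was equal across groups. In the real libraries 10.6% of transcripts were called lower and 7.46% higher in this contrast. The simulation therefore gives no error rate for these data. Scaled counts, ratios and counts of non-overlap were computed with pandas 2.3.3.

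The members, lists and tests were chosen with earlier results of these data known. The transcripts named are the 10 with the largest gap, the 5 most abundant, the 5 with the highest and the 5 with the lowest ratio of heat over standard, those with another highest heat group, the 5 with the least fall at S2, those not lower at S3 or S4, those that changed most in endosperm, those that rose in endosperm or seed coat, those nearest the limit, and the neighbouring pairs. A few more values of these were added after they were seen. Each embryo replicate pooled at least 50 embryos, and the labels do not say that replicates came from separate plants, so p-values measure the spread between these pools. Replicate pairs differed beyond sampling noise (chi-square per degree of freedom 1.60 to 97.4), and none was counted as 1 sample. Counting error alone is covered by the floor of 3 counts.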

Additional observations from a re-analysis of the deposited data

Results flagged for a closer look

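The median of the 150 members in each library did not overlap between temperatures in 7 of the 10 tissue and stage groups. Heat over standard, the mean of the library medians was 0.516 times in embryo S1, 0.240 times in seed coat S1 and 0.723 times in seed coat S2, every heat library being lower than every standard one. It was 2.32 times in embryo S3, 1.25 times in embryo S4, 3.10 times in endosperm S2 and 1.51 times in endosperm S4, every heat library being higher. In embryo S3 the library medians were 1.45 to 2.37 scaled counts under heat and 0.647 to 0.860 at standard temperature, and in endosperm S2 they were 0.983 to 1.05 under heat and 0.287 to 0.369 at standard temperature. These rest on few counts, 8.16 to 14.7 under heat and 5 to 6.56 at standard temperature in embryo S3. In endosperm S2 they rest on 12 and 13 counts under heat and 4 and 5 at standard temperature. In endosperm S4 the medians rest on 1 and 2 counts under heat and 1 count at standard temperature, and in embryo S4 on 2 to 2.85 counts under heat and 2 at standard temperature. Where the median count is equal, the separation is set by the library total, so nothing is read from these 2 ratios. The difference in direction between groups was not tested, and the standard libraries chose the members. The value for seed coat S1 includes standard replicate 1, whose median of 5.37 stands above the 1.85 of replicate 2. Over all nuclear transcripts, the median group mean under heat and at standard temperature was 0.362 and 0.243 in embryo S1. It was 0.232 and 0.382 in embryo S3, 0.894 and 0.734 in endosperm S2, 0.583 and 0.681 in seed coat S1, and 0.511 and 0.564 in seed coat S2. Whether their library medians overlap was not tested.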

How the results depend on the processing

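Within the heat libraries, the count of members lower in embryo S2 than in S1 was 123 to 140 with 1 library left out and 131 to 144 under the other settings tried, beside 136 as reported. The count higher in S2 was 1 with a replicate block, without a filter, with only embryo libraries fitted and at an adjusted p below 0.05. It was also 1 without embryo S2 heat replicate 3 or without embryo S4 heat replicate 3, and 0 under the remaining settings. At an adjusted p below 0.05 the member was Chr7g0229251 (log2 fold change 9.30 ± 2.22, edgeR adjusted p = 0.01168). That transcript had 42.8, 56.5 and 0 estimated counts in heat embryo S2 and 0 in every heat embryo S1 library. The counts for S3 and S4 were at least 143 and at least 145 under all of these settings, those for embryo over endosperm and over seed coat 139 to 148 and 145 to 147, and that for endosperm S4 over S1 90 to 119. The count for seed coat S2 over S1 was less firm, at 11 to 30 with 1 library left out, 39 at an adjusted p below 0.05 and 14 when only seed coat libraries were fitted, beside 24. Scaling by library size alone moved the median log2 of all transcripts to -1.76 for embryo over endosperm S1 and -1.50 for embryo over seed coat S1, and the members' medians to 2.45 and 3.86. The median log2 ratio of heat over standard in embryo S1 was -1.67 with the whole column sum as the total and -1.22 with TMM scaling, beside -1.09. With library size alone, edgeR called 134 members lower under heat in embryo S1 and 0 higher, beside 103 and 1. Most members named as higher or level under heat in embryo S1 therefore depend on the scaling. Chr8g0343011 was higher before scaling too, without overlap. Chr4g0016511 had 1036, 917 and 460 estimated counts in heat embryo S1 against 616, 191 and 47.8 in standard embryo S1. Neither was called higher with library size alone. With the whole column sum, 80 of the 150 members were chosen again, whereas leaving out 1 library gave 138 to 147, the lowest without seed coat S1 standard replicate 1, which was added after seeing the data. Of the transcripts named, Chr2g0295191 turned direction at embryo S2, to a log2 fold change of 0.0477, when libraries were scaled without their 100 largest counts, and it was not called under any setting.

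Replicate numbers did not pair the heat libraries in general, where 9 of the 96 same-numbered pairs had correlated deviations over 0.1. The mean correlation was -0.006 for same-numbered and 0.005 for other pairs. Among the 24 embryo libraries 13 of 84 same-numbered pairs exceeded 0.1, the highest at 0.713, and the means were -0.018 and 0.006. Single same-numbered embryo pairs thus reached large correlations of both signs, the lowest at -0.742. Whether any of these pairs shared a source of variation was not tested. With the replicate number as a block, members lower numbered 133 for embryo S2, 145 for S3, 147 for S4, 102 for endosperm S4 and 23 for seed coat S2, and members higher in embryo numbered 147 over endosperm. For heat over standard in embryo S1 the replicate block gave 102 lower.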
